A study of Homo sapiens with 6 samples.

Results

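The ATF4 amino acid response genes are a list of 37 genes for amino acid synthesis, amino acid transport, mitochondrial one-carbon metabolism and stress signalling that are controlled by the transcription factor ATF4. They were taken by name, and all 37 are among the 18249 genes of the expression table. Of these, 36 reached a value of 1 in at least 1 library and were tested together with 12375 genes in all. FGF21, a secreted hormone of the response, did not reach it (0.07 in knockdown 1, 0.04 in knockdown 2 and 0.04 in the control). ATF3 and ALDH1L2 reached it only through the knockdown libraries, so the counts of genes at least 1.5-fold higher are also given over all 37.

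The cells were TE-10, an established line from an esophageal squamous cell carcinoma. METTL3, the enzyme that writes N6-methyladenosine (m6A) on mRNA, was stably knocked down by short hairpin RNA in 2 libraries, titled as hairpins 1 and 2 and called knockdown 1 and knockdown 2 here, and 1 library came from TE-10 cells with normal METTL3. The m6A map comes from TE-10 cells with normal METTL3, with 2 immunoprecipitated libraries and 1 input, and reached the files as a single peak list. All cells grew in the same serum-containing medium, and the labels give 1 cell line for all libraries. The labels do not say whether the knockdown libraries came from separate cultures, so a p-value here reflects the spread of these libraries alone, and that spread may be technical. They also do not say whether the control cells carried a hairpin of their own.

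METTL3 was at 8.35 in knockdown 1 and 4.99 in knockdown 2, against 20.81 in the control. Both values are below the control value, as the labels have it, and no other of 8 writer complex genes was 1.5-fold different in either library. Knockdown 2 stood apart in other genes. A list of 7 markers of an embryonic kidney type cell line summed to 534.3 in knockdown 2, against 88.5 in knockdown 1 and 87.2 in the control. Most of each sum was VIM, at 311.17 in knockdown 2, 88.05 in knockdown 1 and 87.02 in the control. PAX2, WT1 and LHX1 of the same list stayed under 1 in each library. Each was highest in knockdown 2, at 0.78, 0.69 and 0.29. They were at 0, 0.02 and 0 in knockdown 1 and at 0.01, 0.02 and 0 in the control. CDKN2A, a gene for cell cycle inhibitors, had 144.68 in knockdown 2, 0 in knockdown 1 and 0.04 in the control, and the homeobox gene HOXB9 was at 53.12 in knockdown 2, 0.35 in knockdown 1 and 0.03 in the control. The squamous keratin KRT5 was at 779.09 in knockdown 1 and 429.18 in knockdown 2, against 633.07 in the control. Of 10 squamous markers, 6 were at least 1.5-fold lower in knockdown 2 (60%, against 4.86% of all genes tested) and 0 in knockdown 1 (against 2.51%). Fibroblast markers summed to 3.7 in both knockdown libraries and 3.4 in the control, and none of 5 leukocyte or 3 endothelial markers reached 1. Whether the library labelled knockdown 2 holds RNA of other cells, or is not what its label says, was not tested, and every value of it carries this doubt. Each result is therefore given for knockdown 1 and knockdown 2 separately, and in bulk RNA a change in cell make-up and a change in RNA per cell cannot be told apart.

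When a cell runs short of amino acids, or its endoplasmic reticulum is stressed, kinases phosphorylate the initiation factor eIF2. Most translation then slows, while the mRNA of ATF4 is translated more because short reading frames in its leader no longer hold ribosomes back. ATF4 pairs with other leucine zipper proteins, C/EBP family members among them, and binds composite C/EBP-ATF response elements near genes that make, import and charge amino acids. Squamous carcinomas are known to use the serine pathway and the transporters of this program for growth. In mouse cells, m6A in the leader of Atf4 mRNA has been reported to affect which start codon is used.

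The response element was looked for in the RefSeq windows of 250 bases before to 50 bases after annotated starts (build GRCh38.p14), since the genes described below share this control. The motif searched was TGATGNAA, on either strand, where N is any base. Windows were at hand for 30 of the 37 genes. Not among them were ALDH1L2, GPT2, NUPR1, PSPH, PYCR1, SHMT2 and SLC7A11. The motif was present for 10 of the 30 genes (33.3%) and for 1217 of 27305 genes in all (4.46%), or 256 of 9728 tested genes with a window (2.63%). Counted by window, since some genes have several starts, it was in 12 of 50 windows of the list (24%) and in 1270 of 35116 overall (3.62%). The 10 sites are printed because they are the letters shared by genes of different roles. Each is written 5′ to 3′ on the strand that reads TGATGNAA, with the motif in capitals and up to 12 bases on each side.
ASNS (chr7:97872457-97872488, minus strand): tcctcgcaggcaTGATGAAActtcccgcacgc
CHAC1 (chr15:40953250-40953281, minus strand): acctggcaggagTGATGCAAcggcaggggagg
CEBPG (chr19:33374059-33374090, plus strand): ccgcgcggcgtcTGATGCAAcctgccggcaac
ATF3 (chr1:212565204-212565235, plus strand): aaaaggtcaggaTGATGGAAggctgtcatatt
MTHFD1L (chr6:150866345-150866376, plus strand): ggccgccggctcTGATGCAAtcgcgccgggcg
SLC1A4 (chr2:64989380-64989411, minus strand): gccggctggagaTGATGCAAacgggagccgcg
SLC1A5 (chr19:46784892-46784923, minus strand): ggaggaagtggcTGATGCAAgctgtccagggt
SLC3A2 (chr11:62881724-62881748, minus strand): ggagcTGATGTAAggagtcctgcac
SLC7A1 (chr13:29595662-29595693, minus strand): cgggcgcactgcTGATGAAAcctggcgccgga
FGF21 (chr19:48755458-48755489, minus strand): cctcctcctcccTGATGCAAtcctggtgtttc

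With the variable base fixed as in TGATGCAA, 6 of the 30 genes (20%) had a match, against 295 of 27305 genes (1.08%). A match is a description of the letters and not evidence that ATF4 binds there in TE-10 cells, and a window without one can hold the element outside its bounds. The whole windows of ASNS and CHAC1 are printed because, among the genes with a match, both stood at least 1.5-fold above the control in each knockdown library. PSAT1 and SLC6A9 stood as far above it in each library by this measure, and their windows held no match. In the ASNS window (chr7:97872359-97872658, read along the minus strand, the gene's own) the motif begins 68 bases before the start.
ASNS: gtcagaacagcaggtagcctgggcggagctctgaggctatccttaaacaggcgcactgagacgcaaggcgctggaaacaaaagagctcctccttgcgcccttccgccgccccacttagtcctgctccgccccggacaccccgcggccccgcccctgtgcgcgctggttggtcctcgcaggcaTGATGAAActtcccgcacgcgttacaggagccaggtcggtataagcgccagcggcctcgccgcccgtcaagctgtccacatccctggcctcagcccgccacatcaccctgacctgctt
In the CHAC1 window (chr15:40953221-40953520, plus strand, the gene's own) the match lies on the opposite strand, begins 209 bases before the start and so reads TTGCATCA here.
CHAC1: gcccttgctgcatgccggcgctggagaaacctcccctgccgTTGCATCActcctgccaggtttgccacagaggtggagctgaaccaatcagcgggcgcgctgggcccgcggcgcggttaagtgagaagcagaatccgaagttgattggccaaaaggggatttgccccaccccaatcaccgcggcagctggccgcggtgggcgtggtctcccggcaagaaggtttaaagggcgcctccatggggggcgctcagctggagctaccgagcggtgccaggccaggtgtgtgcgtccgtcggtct

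Most ATF4 response genes stood higher in the knockdown libraries than in the control, with the list's median change in log2(value + 1) at 0.44 for knockdown 1 and 0.19 for knockdown 2. Over all genes tested the medians were -0.01 and 0. In knockdown 1, 12 of 36 genes (33.3%) were at least 1.5-fold higher, against 1.78% of all genes tested, and 0 were at least 1.5-fold lower, against 2.51%. In knockdown 2, 12 of 36 (33.3%) were at least 1.5-fold higher, against 8.69%, and 0 lower, against 4.86%. Folds are taken after adding 1 to each value, so those of low genes come out too small, and each rests on 1 library against the same control library. Over all 37 genes with no filter the counts of higher genes were 12 and 12 as well. The shares of all genes given here are those with the filter.

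Both knockdown values lay above the control value for 28 of 36 genes, against 28% of all genes tested. For DDIT4 and SLC38A2 both lay below it, 2 of 36 against 30.4%, and for 6 genes the libraries went opposite ways or knockdown 2 equalled the control. Ranked by change among 12375 genes, the list had a median rank of 494.5 in knockdown 1 and 3625.5 in knockdown 2. Of the 100 genes with the largest positive change, 10 were of the list in knockdown 1 (GPT2, PSAT1, ASNS, SLC1A4, CHAC1, TRIB3, SLC6A9, SLC7A5, NUPR1 and SLC3A2) and 1 in knockdown 2 (ATF3). The histograms of all genes with the listed genes marked under them show this shift.

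**Figure D1:**
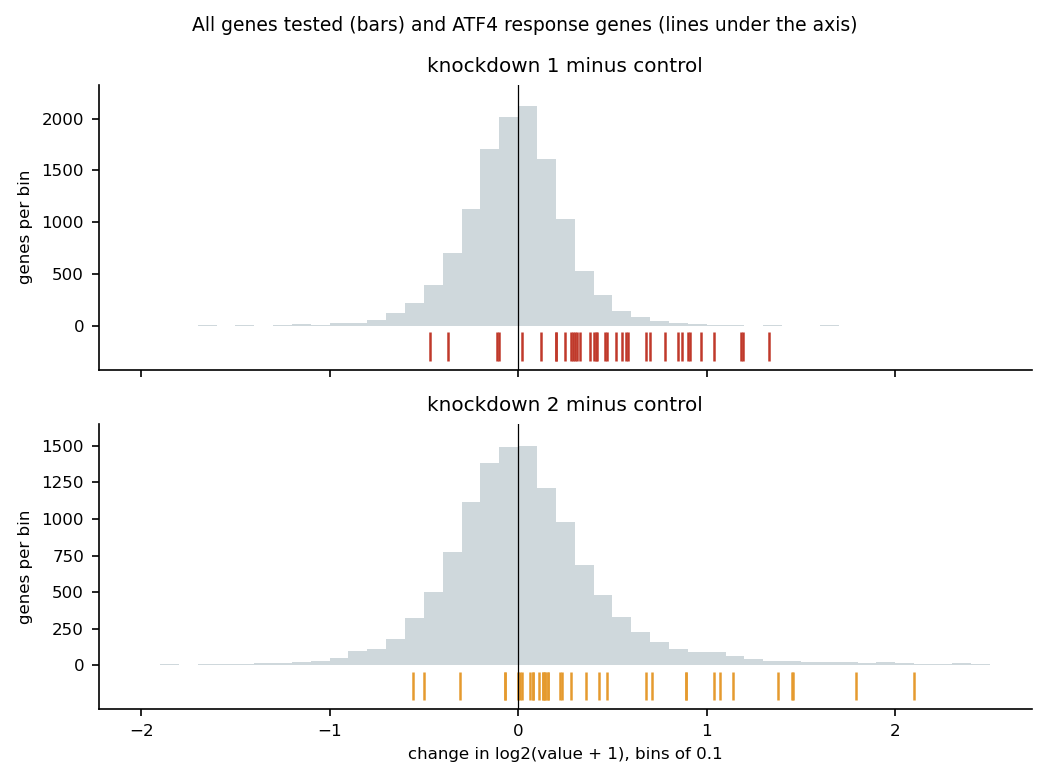
Change in log2(value + 1) against the control for all 12375 genes tested (grey bars, genes per bin of 0.1, drawn from -2 to 2.5) and for the 36 tested ATF4 response genes (vertical lines under the axis), in knockdown 1 (top) and knockdown 2 (bottom), 1 library each. In knockdown 1 most lines lie right of the peak of the bars, around their median of 0.44, while in knockdown 2 they cluster around 0.19 with a tail up to 2.1.

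No listed gene passed limma's test of both knockdown libraries against the control at an adjusted p of 0.05, and neither did any other gene (0 of 12375, 0%). The adjusted p was 1 for every one of the 36. At an unadjusted p under 0.05 there were 5 of the 36 genes, against 162 of 12375. They were ASNS (limma log2 change 1.28, SE 0.25), CHAC1 (1.21, SE 0.292), PSAT1 (1.04, SE 0.264), SLC6A9 (0.97, SE 0.253) and PHGDH (0.63, SE 0.256), each above the control in both knockdown libraries. METTL3 itself, at -1.54 (SE 0.327), did not pass either, with an adjusted p of 1 in limma. With 1 control library the test has 1 residual degree of freedom per gene. It joins a gene's difference between the knockdown libraries with the spread over all genes, and treats the control as varying that much too. SLC38A2, at 25.73 in knockdown 1 and 25.26 in knockdown 2, thus still has an SE of 0.237. "Higher" and "lower" below therefore describe values of single libraries.

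Among the transcription factors, ATF4 itself was at 546.9 in knockdown 1 and 737.4 in knockdown 2, against 397.79 in the control. Its change in log2(value + 1) was 0.46 in knockdown 1 and 0.89 in knockdown 2. ATF4 mRNA thus stood higher in both libraries, although the protein is known to be set mainly by translation, which was not measured. NUPR1, a stress-induced chromatin protein, was at 44.05 in knockdown 1 and 30.94 in knockdown 2, against 23.93 in the control. NUPR1 was furthest from the control in knockdown 1, and the next gene in knockdown 2. ATF3, a leucine zipper factor induced by many stresses, was at 1.05 in knockdown 1 and 6.05 in knockdown 2, against 0.65 in the control. ATF3 reached a value of 1 only through the knockdown libraries, so its place among the tested genes follows in part from the filter. Its 2.1 log2 change in knockdown 2 was the largest of the list there. What part the kidney type markers of that library have in it was not tested. CEBPB, a partner of ATF4, was at 109.24 in knockdown 1 and 86.76 in knockdown 2, against 107.57 in the control.

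DDIT3, also called CHOP, the factor linked to cell death under prolonged stress, was at 35.17 in knockdown 1 and 32.46 in knockdown 2, against 30.58 in the control. Its log2 change was 0.20 in knockdown 1 and 0.08 in knockdown 2, under 1.5-fold in each. CEBPG, a further ATF4 partner, differed by 0.20 in knockdown 1 and 0.13 in knockdown 2. ATF5, a factor under the same kind of leader control as ATF4, differed by 0.47 in knockdown 1 and -0.07 in knockdown 2. Of the 7 factors, 7 were above the control in knockdown 1 and 5 in knockdown 2, beside 5849 and 6189 of all 12375 genes tested.

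**Figure D2:**
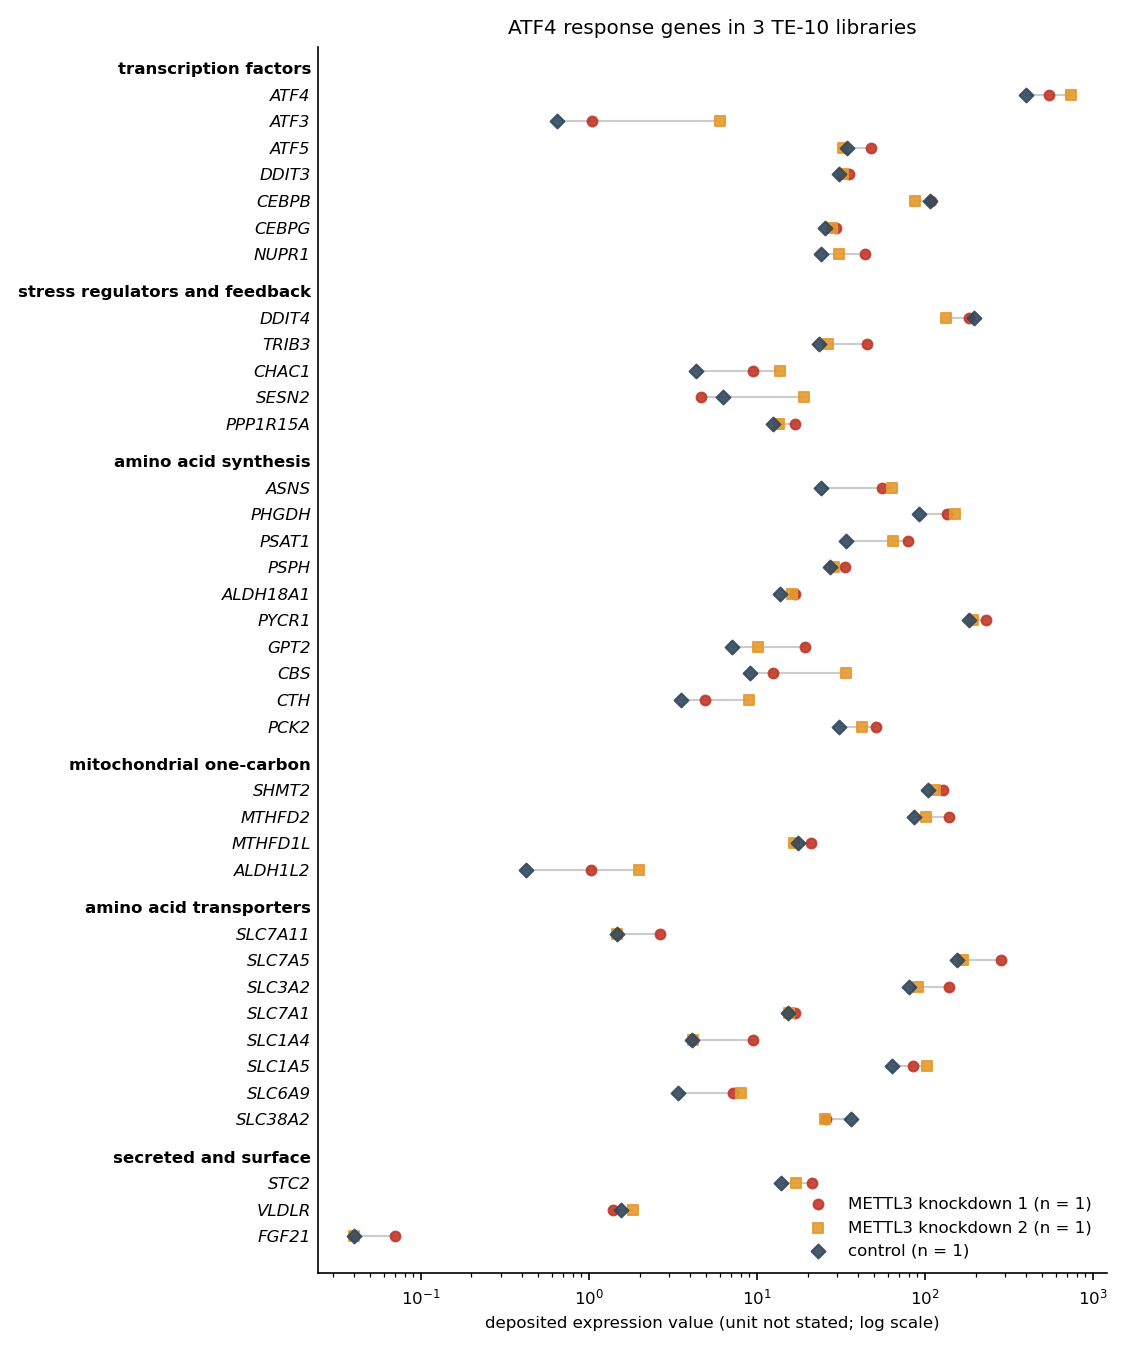
Deposited expression value (log axis, unit not stated) of the 37 genes by role in knockdown 1 (circles), knockdown 2 (squares) and the control (diamonds), 1 library each, with a grey line over the range. ASNS, PSAT1, CHAC1 and SLC6A9 have both knockdown values well right of the control, and DDIT4 and SLC38A2 have both left of it.

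The regulators split. CHAC1, which breaks down glutathione, was at 9.5 in knockdown 1 and 13.62 in knockdown 2, against 4.35 in the control, a log2 change of 0.97 and 1.45. TRIB3, a pseudokinase that feeds back on ATF4, was at 45.07 in knockdown 1 and 26.34 in knockdown 2, against 23.49 in the control. So CHAC1 was past 1.5-fold above the control in each library, and further in knockdown 2, while TRIB3 was past it in knockdown 1 and close to the control in knockdown 2. SESN2, a sensor protein that restrains mTORC1, went the other way and was at 4.63 in knockdown 1 and 19.02 in knockdown 2, against 6.26 in the control. DDIT4, a further mTORC1 inhibitor, was at 181.71 in knockdown 1 and 132.46 in knockdown 2, against 196.04 in the control. PPP1R15A, also called GADD34, which brings a phosphatase to eIF2, differed by 0.41 in knockdown 1 and 0.11 in knockdown 2.

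All 10 amino acid synthesis genes lay above the control in knockdown 1, by a median of 0.49 on the log2 scale, and all 10 did so in knockdown 2, by 0.59. Of all 12375 genes tested, 5849 lay above it in knockdown 1, 6189 in knockdown 2 and 28% in both. ASNS, which makes asparagine from aspartate and glutamine, was at 55.81 in knockdown 1 and 63.88 in knockdown 2, against 24.01 in the control. Its log2 change was 1.18 in the first and 1.38 in the second of these libraries, both well above the control.

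Serine is made from a glycolytic intermediate in a chain of steps by PHGDH, PSAT1 and PSPH. PHGDH, the entry enzyme, was at 135.48 in knockdown 1 and 151.34 in knockdown 2, against 91.9 in the control. PSAT1, the transaminase of the next step, was at 78.89 in knockdown 1 and 64.05 in knockdown 2, against 34.04 in the control. The last enzyme, PSPH, was at 33.59 in knockdown 1 and 28.69 in knockdown 2, against 27.13 in the control. The log2 changes along the chain were thus 0.55 and 0.71 for PHGDH, 1.19 and 0.89 for PSAT1, and 0.30 and 0.08 for PSPH, the middle step being the one with the largest change in each library. PSPH has a near-identical pseudogene copy, so its value is uncertain.

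GPT2, which makes alanine and 2-oxoglutarate in mitochondria, was at 19.36 in knockdown 1 and 10.19 in knockdown 2, against 7.1 in the control. Its log2 change was 1.33 in knockdown 1, the largest of the list there and rank 11 of 12375 genes, and 0.47 in knockdown 2. PCK2, the mitochondrial enzyme that makes phosphoenolpyruvate from oxaloacetate, was at 50.78 in knockdown 1 and 41.89 in knockdown 2, against 30.91 in the control.

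Cysteine is made from homocysteine and serine by CBS and CTH. CBS was at 12.54 in knockdown 1 and 33.98 in knockdown 2, against 9.13 in the control, and CTH was at 4.88 in knockdown 1 and 8.97 in knockdown 2, against 3.53 in the control. Both were higher mainly in knockdown 2, where their log2 changes were 1.79 and 1.14. CBS has a near-identical annotated copy and its value is uncertain. Without it the list's medians were 0.46 in knockdown 1 and 0.16 in knockdown 2, a check chosen after seeing the data. For proline, PYCR1 was at 231.42 in knockdown 1 and 191.77 in knockdown 2, against 183.34 in the control, and ALDH18A1 differed by 0.28 and 0.23.

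Mitochondrial one-carbon enzymes pass the carbon of serine on to formate. MTHFD2, the dehydrogenase of this path in proliferating cells, was at 139.1 in knockdown 1 and 101.06 in knockdown 2, against 86.48 in the control. SHMT2, which splits serine into glycine and a one-carbon unit, was at 127.28 in knockdown 1 and 114.07 in knockdown 2, against 103.77 in the control. ALDH1L2, which burns the unit to carbon dioxide, was low at 1.03 in knockdown 1 and 1.98 in knockdown 2, against 0.42 in the control. MTHFD1L, which releases formate, differed by 0.25 in knockdown 1 and -0.07 in knockdown 2. All 4 were above the control in knockdown 1 and 3 in knockdown 2, as were 5849 and 6189 of all 12375 genes tested. Only MTHFD2 was at least 1.5-fold higher in knockdown 1 (25%, against 1.78% of all genes). In knockdown 2 only ALDH1L2 was (25%, against 8.69%). ALDH1L2 reached a value of 1 only through the knockdown libraries, so its place in this count follows in part from the filter.

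**Figure D3:**
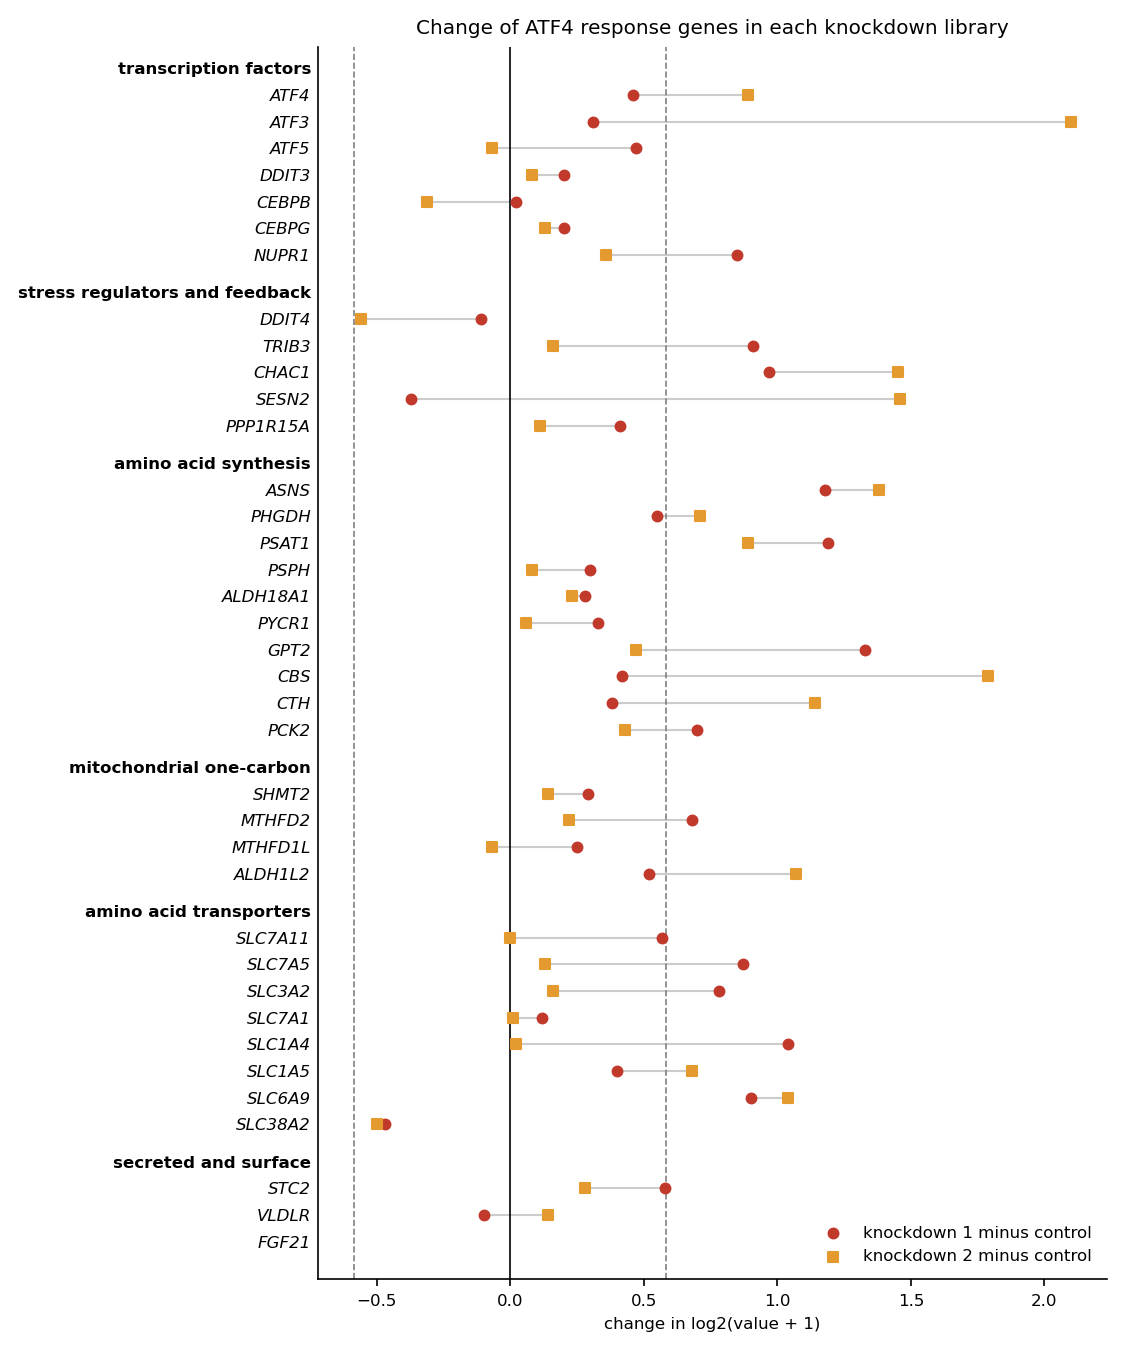
Change in log2(value + 1) of the 36 tested genes, by role, for knockdown 1 (circles) and knockdown 2 (squares) minus the same control library, with dashed lines at a fold of 1.5. The 10 synthesis genes lie right of 0 in both libraries, whereas transporters such as SLC7A5, SLC3A2 and SLC1A4 pass the dashed line in knockdown 1 and lie near 0 in knockdown 2. FGF21 was not tested and has no mark.

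Among the role groups, the transporters had the medians that lay furthest apart, 0.68 on the log2 scale for knockdown 1 and 0.07 for knockdown 2. SLC7A5 and SLC3A2 encode the light and heavy chain of the exchanger that imports leucine and other large neutral amino acids. SLC7A5 was at 282.61 in knockdown 1 and 168.58 in knockdown 2, against 154.26 in the control. SLC3A2 was at 139.37 in knockdown 1 and 90.4 in knockdown 2, against 80.71 in the control. The chains stood at like ratios to the control, 1.83 and 1.73 in knockdown 1 and 1.09 and 1.12 in knockdown 2. SLC7A5 has near-identical pseudogene copies. SLC1A4, a carrier of serine, alanine and cysteine, was at 9.51 in knockdown 1 and 4.17 in knockdown 2, against 4.1 in the control, so it was high in knockdown 1 and level with the control in knockdown 2.

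SLC6A9, the glycine transporter GLYT1, was at 7.2 in knockdown 1 and 8.01 in knockdown 2, against 3.38 in the control. SLC1A5, the glutamine carrier ASCT2, was at 84.35 in knockdown 1 and 102.46 in knockdown 2, against 63.55 in the control. Both genes had both knockdown values above the control. SLC38A2, the sodium-coupled carrier SNAT2 that is a textbook target of amino acid shortage, was at 25.73 in knockdown 1 and 25.26 in knockdown 2, against 36.08 in the control. It therefore lay below the control by nearly the same amount in each library, with log2 changes of -0.47 and -0.50 (limma -0.48, SE 0.237). SLC7A11, the cystine importer xCT, differed by 0.57 in knockdown 1 and 0 in knockdown 2, and SLC7A1, the arginine and lysine carrier, by 0.12 and 0.01.

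Of the secreted and surface proteins, the glycoprotein hormone STC2 differed by 0.58 in knockdown 1, just under the 1.5-fold line, and by 0.28 in knockdown 2. The lipoprotein receptor VLDLR was at 1.39 in knockdown 1 and 1.82 in knockdown 2, against 1.56 in the control.

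Set against each other directly, knockdown 2 was at least 1.5-fold above knockdown 1 for 4 of 36 genes, against 9.83% of all genes tested, and at least 1.5-fold below it for 5, against 5.2%. The higher genes were ATF3, CBS, CTH and SESN2, with log2 differences of 1.78, 1.37, 0.76 and 1.83. Lower in knockdown 2 were GPT2, SLC1A4, SLC3A2, SLC7A5 and TRIB3, by -0.86, -1.02, -0.62, -0.74 and -0.75. The share of higher genes (11.1%) is near that of all genes, and the share of lower genes (13.9%) is above it. The share that the kidney type markers and the lower squamous markers of knockdown 2 have in this was not tested.

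Genes of the same pathway outside the list were read from lists of their own. These lists too were chosen with earlier results of these data known, so they are not independent of the values. A list of further ATF4 pathway genes is given under the other observations. The cytosolic aminoacyl-tRNA synthetases charge tRNAs, and part of them are known targets of ATF4. Of 14 such ATF4-responsive genes, tRNA exporter XPOT included, 13 were above the control in knockdown 1 and 11 in knockdown 2, beside 5849 and 6189 of 12375 overall. Their median log2 changes were 0.52 and 0.33. At least 1.5-fold higher were 7 in knockdown 1 (50%, against 1.78% of all genes) and 5 in knockdown 2 (35.7%, against 8.69%). In either library 0 were 1.5-fold lower, against 2.51% and 4.86% of all genes. The 7 synthetases not usually listed as ATF4 targets had medians of 0.04 and 0.05, with 0 past 1.5-fold in knockdown 1 and 1, QARS1, in knockdown 2.

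GARS1, for glycine, was at 99.12 in knockdown 1 and 69.76 in knockdown 2, against 45.33 in the control. IARS1, for isoleucine, was at 30.54 in knockdown 1 and 42.05 in knockdown 2, against 19.95 in the control. SARS1, for serine, was at 95.5 in knockdown 1 and 97.74 in knockdown 2, against 60.78 in the control. Each of them was clearly above the control in both libraries, as was YARS1, for tyrosine, at 89.41 in knockdown 1 and 123.48 in knockdown 2, against 56.5 in the control. WARS1, for tryptophan, which interferon also induces, was at 171.58 in knockdown 1 and 110.16 in knockdown 2, against 110.46 in the control. KARS1, of the other list, was at 99.71 in knockdown 1 and 87.81 in knockdown 2, against 102.84 in the control.

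**Figure D4:**
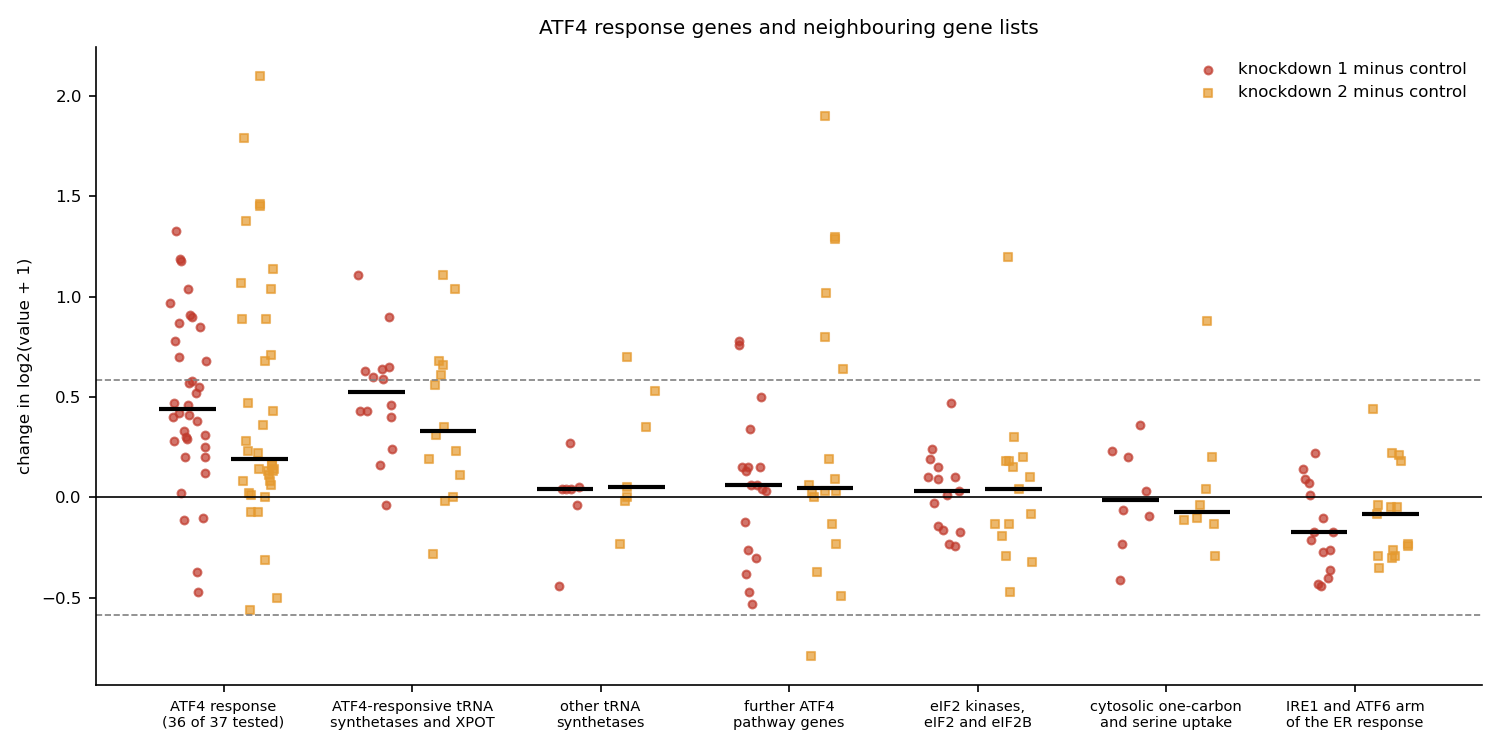
Change in log2(value + 1) of single genes in 7 lists for knockdown 1 (circles) and knockdown 2 (squares) minus the control, with list medians as black bars and dashed lines at a fold of 1.5. The ATF4 response genes and the ATF4-responsive synthetases have medians of 0.44 and 0.52 in knockdown 1, while the other lists lie close to 0 or, for the IRE1 and ATF6 arm, at -0.17.

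The machinery upstream of ATF4 was read at the RNA level. The 15 genes for eIF2 kinases, eIF2, its exchange factor eIF2B and their partners had a median log2 change of 0.03 (knockdown 1) and 0.04 (knockdown 2). In knockdown 1, 0 passed 1.5-fold, where 1.78% of all genes tested were higher and 2.51% lower. In knockdown 2, 1 was higher (6.67%, against 8.69%) and 0 lower (against 4.86%). With 15 genes these counts are near the shares of all genes. EIF2AK1 (HRI), a kinase that responds to low heme and mitochondrial stress, was at 109.87 in knockdown 1 and 121.97 in knockdown 2, against 107.53 in the control. The kinase that senses uncharged tRNA, EIF2AK4 (GCN2), was at 12.53 in knockdown 1 and 13.09 in knockdown 2, against 15.03 in the control. EIF2AK3 (PERK), the kinase of the endoplasmic reticulum, was at 4.08 in knockdown 1 and 4.56 in knockdown 2, against 4.2 in the control. EIF2AK2 (PKR), the kinase that binds double-stranded RNA, was at 11.01 in knockdown 1 and 8.58 in knockdown 2, against 12.25 in the control. No kinase was thus 1.5-fold from the control in either library. The gene past 1.5-fold was EIF2S3, a subunit of eIF2, at 48.98 in knockdown 1 and 99.81 in knockdown 2, against 42.78 in the control. EIF2S2, a further subunit, was at 137.55 in knockdown 1 and 113.97 in knockdown 2, against 98.77 in the control. Kinase activity and eIF2 phosphorylation were not measured.

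Genes of the other branches of the endoplasmic reticulum response, IRE1 and ATF6, chaperones among them, were mostly below the control. Of 15 genes, 10 were below it in both libraries (66.7%, against 30.4% of all genes). Above it in both were 4 (26.7%, against 28%), namely DNAJB9, HERPUD1, SEC61B and XBP1. The median was -0.17 for knockdown 1 and -0.08 for knockdown 2, and 0 passed 1.5-fold in either direction. Of all genes tested, 1.78% were higher and 2.51% lower in knockdown 1, and 8.69% and 4.86% in knockdown 2. The chaperone HSPA5 (BiP) was at 68.68 in knockdown 1 and 65.51 in knockdown 2, against 77.33 in the control. HSP90B1 was at 165.85 in knockdown 1 and 181.39 in knockdown 2, against 223.74 in the control. XBP1, the transcription factor of the IRE1 branch, was instead at 100.41 in knockdown 1 and 116.67 in knockdown 2, against 85.92 in the control. No test of the difference between this list and the ATF4 genes was run.

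The m6A peak list of TE-10 cells with normal METTL3 held 26 of its 15940 peaks in 17 of the 37 genes. In 16 genes at least 1 peak was annotated to an exon or untranslated region (UTR). Among tested genes these are 44.4% of the list, against 42.5% of all (5253 of 12372 with a unique symbol), a share near the background. By location, 8 of the 26 peaks were in a 5′ UTR (30.8%), against 11.6% of all peaks, 6 in coding exons (23.1%, against 34.1%), 9 in a 3′ UTR (34.6%, against 21.5%), 2 in introns and 1 upstream. These shares come from few genes and carry no test. The list gives no score, so how strongly a transcript was marked is unknown, and it has no knockdown counterpart, so loss of m6A on METTL3 knockdown was not measured.

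ATF4 had no peak in the list, nor did ATF3, DDIT3, ASNS, GPT2, CBS, CTH, PCK2, MTHFD2, SHMT2 or 10 further genes. That ATF4 is not listed says only that no region passed the authors' calling. PHGDH had 1 peak in its 5′ UTR, at a distance of 138 bases in the authors' distance column, and PSAT1 had 1 at a distance of 0. SLC3A2 and SLC38A2 likewise had a 5′ UTR peak each, at 120 and 104 bases, and SLC1A5 at 427 bases. Peaks at the 5′ end were thus found both in genes above the control and in SLC38A2, below it. CEBPB, a gene without introns, had 3 peaks, 1 each in the 5′ UTR (chr20:48807266-48807635), the coding exon (chr20:48808272-48808518) and the 3′ UTR (chr20:48808747-48808973). STC2 also had 3, 2 in the 5′ UTR and 1 in a coding exon.

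In the 3′ UTR lay the peaks of TRIB3, SESN2, SLC1A4, SLC7A5 (2 peaks), SLC7A1 (2 peaks) and 1 of CHAC1. CEBPG and PPP1R15A had theirs in coding exons, PPP1R15A with 2, and ATF5 had 1 in a coding exon and 1 in an intron. Widths of the 26 peaks ran from 205 to 1017 bases with a median of 354.5, against 315 for all peaks. Coordinates are as deposited: only 2 of the 26 peaks fell inside the span that GRCh38.p14 gives their gene, so the build named in the processing notes, hg38, is not taken for them, and no sequence is read from them.

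Response genes with a peak were set beside those without. The 16 with an exon or UTR peak had median log2 changes of 0.51 (knockdown 1) and 0.14 (knockdown 2), and the 20 tested genes without had 0.40 and 0.30. Over all genes tested the medians were -0.02 and -0.03 with a peak and -0.01 and 0.03 without. At least 1.5-fold higher were 6 of the 16 and 6 of the 20 in knockdown 1, and 5 of the 16 and 7 of the 20 in knockdown 2. Over all genes tested the shares with and without a peak were 1.48% and 1.99% in knockdown 1, and 6.09% and 10.6% in knockdown 2. For the response element, the 9 tested genes with TGATGNAA near the start had medians of 0.40 and 0.16, and the 20 with a window but no match had 0.44 and 0.23, with 4 and 6 genes at least 1.5-fold higher in knockdown 1 (1.78% of all genes tested) and 4 and 7 in knockdown 2 (8.69%). None of these differences was tested.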

How the data were processed

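Per the submitters' processing notes, reads were aligned with TopHat2, counted with HTSeq and, for immunoprecipitations, searched for peaks with MACS2, with build hg38; the versions are absent from these notes. The expression values that the authors deposited are treated as a signal, because the header states neither unit nor normalization (2 decimals, column sums of 617840.4, 627152 and 608291 in knockdown 1, knockdown 2 and control), so sequencing depth is unknown and no counting error is given. The deposited peak list gives other quantities, positions and distances in bases. Listed genes were matched by symbol, 18 of 155 under an older symbol.

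Values were taken as log2(value + 1). Genes at 1 or more in at least 1 library were fitted with limma 3.58.1 in R 4.3.3, knockdown against control, with a mean-variance trend and Benjamini-Hochberg adjustment over 12375 genes at 0.05. No count model was used, as the table holds no counts. Single libraries were compared at a fold of 1.5. The fit was run on simulated data with the same spread for every gene and equal effects in both knockdown libraries. That checks the code and does not cover a library that differs as knockdown 2 does. Tables and plots were made with pandas 2.3.3, numpy 2.4.6 and matplotlib 3.10.9 under Python 3.11.15.

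All 37 genes are accounted for: values are printed for genes past 1.5-fold in either hairpin or at 100 or more in the control, and for some others chosen for their role. Values of other lists are printed for genes past 1.5-fold in both hairpins and for examples chosen after their values were seen. The members and lists were chosen with earlier results of these data known. The values of 1 gene of a neighbouring list are not reported here.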

Additional observations from a re-analysis of the deposited data

How the results depend on the processing

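No listed gene was called by limma under median-of-ratios scaling, quantile normalization, a pseudocount of 0.1, no filter, a mean of at least 5 or without the mean-variance trend (0 calls over all genes in each, with 123 to 444 genes and 4 to 6 listed genes at an unadjusted p under 0.05). Under the scalings, the pseudocount and the filters, the median log2 change of the list was 0.42 to 0.47 in knockdown 1 and 0.16 to 0.22 in knockdown 2, and the genes at least 1.5-fold higher numbered 12 to 16 and 10 to 12. The scalings moved the median of all genes by at most 0.03. Genes above the control in both libraries numbered 26 to 28, and 30 to 32 when either knockdown library was left out. Genes below it in both numbered 2, but 4 with quantile normalization and 4 to 5 when a knockdown library was left out; each such library alone has fewer conditions to meet. Asking for at least 2 exon or UTR peaks left 5 of 16 genes, and fixing the motif as TGATGCAA left 6 of 10, both being stricter by construction. The mean change of 5 genes turned round when a library was left out: without knockdown 1 and without knockdown 2 it was -0.07 and 0.47 for ATF5, -0.31 and 0.02 for CEBPB, 1.46 and -0.37 for SESN2, -0.07 and 0.25 for MTHFD1L, and 0.14 and -0.10 for VLDLR. With quantile normalization VLDLR also turned round (-0.04). The cause was not tested. Leaving out a knockdown library leaves 1 library a group and no residual degree of freedom, so these are values without a test. No paired analysis was possible because knockdown and control share fewer than 2 replicate numbers. With 1 control library, a deviation of that library enters every change given here.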

Other observations

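A list of further genes tied to ATF4, some of them amino acid transporters, was also read. Of 20 listed, 18 were tested, with median log2 changes of 0.06 in knockdown 1 and 0.04 in knockdown 2, and 10 were above the control in both libraries (55.6%, against 28% of all genes) and 3 below it in both (16.7%, against 30.4%). At least 1.5-fold higher were 2 in knockdown 1 (11.1%, against 1.78%) and 6 in knockdown 2 (33.3%, against 8.69%). At least 1.5-fold lower were 0 in knockdown 1 (against 2.51%) and 1 in knockdown 2 (5.56%, against 4.86%). EIF4EBP1, the inhibitor of cap-dependent translation that ATF4 is known to induce, was at 332.13 in knockdown 1 and 366.34 in knockdown 2, against 234.58 in the control. JDP2, a leucine zipper repressor, was at 106.33 in knockdown 1 and 65.3 in knockdown 2, against 61.49 in the control. INHBE, which encodes an activin subunit, was low, at 1.74 in knockdown 1 and 1.83 in knockdown 2, against 0.62 in the control. It reached a value of 1 only through the knockdown libraries, so its place among the higher genes counted above follows in part from the filter. TSC22D3, a glucocorticoid-induced leucine zipper protein, was at 64.75 in knockdown 2, against 16.96 in knockdown 1 and 16.57 in the control. TXNIP, which limits glucose uptake, was at 38.57 in knockdown 1 and 26.32 in knockdown 2, against 46.32 in the control. The stress cytokine GDF15 was at 5.37 in knockdown 1 and 3.89 in knockdown 2, against 4.73 in the control.

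The cytosolic one-carbon and serine uptake genes had a median log2 change of -0.02 for knockdown 1 and -0.07 for knockdown 2. Of 8 tested, 0 passed 1.5-fold in knockdown 1, where 1.78% of all genes were higher and 2.51% lower. In knockdown 2, 1 was at least 1.5-fold higher (12.5%, against 8.69%) and 0 lower (against 4.86%). These counts are near the shares of all genes. SHMT1, the cytosolic counterpart of SHMT2, was at 108.48 in knockdown 1 and 68.82 in knockdown 2, against 84.07 in the control. TYMS, which makes thymidylate, was at 137.8 in knockdown 1 and 109.16 in knockdown 2, against 116.94 in the control. The difference between the cytosolic and the mitochondrial lists was not tested.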
